A study of Mus musculus with 42 samples.

Results

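The 9 genes of hepatic insulin signalling followed here were measured in the livers of 42 male mice: Insr, Irs1, Irs2, Pik3r1, Akt2, Foxo1, Foxo3, Grb14 and Socs3. They were chosen by symbol as a fixed list of the pathway's receptor, docking proteins, kinase arm, transcription factors and inhibitors. Earlier results of these data were known when the list was chosen. All 9 were listed in each of 6 tables of normalized counts, among 19758 gene names found in at least 1 table and 12742 found in all 6. The mice were C57BL/6J animals, 7 in each of 6 groups and 1 whole-liver library per mouse. WT and ChemR23 knockout (KO) littermates were given a lean control diet with 10% of its energy as fat or a high-fat diet with 60%, from 6 weeks of age and for 15 weeks. RvE1, a lipid mediator that binds ChemR23, was injected intraperitoneally, per the labels into the visceral fat pad, at 300 ng on each of 4 days, and tissue was taken on day 5. WT lean, WT obese, KO lean and KO obese mice received the ethanol and PBS vehicle in its place, and the WT obese+RvE1 and KO obese+RvE1 groups received the mediator while on the high-fat diet. The knockout was made by CRISPR/Cas9 editing of Cmklr1, which encodes ChemR23, and is not limited to hepatocytes.

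Insulin binds its receptor, a tyrosine kinase encoded by Insr, which phosphorylates the docking proteins IRS1 and IRS2. These recruit the phosphatidylinositol 3-kinase through its regulatory subunit, encoded by Pik3r1, and the lipid product activates AKT2, the main AKT isoform of the liver response to insulin. AKT phosphorylates FOXO1 and FOXO3 and keeps them out of the nucleus, which lowers the genes of glucose output, while GRB14 and SOCS3 restrain the receptor and its docking proteins.

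The promoters of the docking protein genes and of Pik3r1 are shown first, since Irs1, Irs2 and Pik3r1 were each called in 24 of 24 alternative fits of a diet comparison. The Pik3r1 window shown holds none of the motifs searched. RefSeq promoter windows on GRCm38.p6, from 250 bases before to 50 bases after a start site, were found for 8 of the 9 members, as 12 windows because Pik3r1 and Akt2 have several starts. Each line below holds the 250 bases before the start, 5′ to 3′ on the gene's own strand, which is the minus strand for all 3 genes. Capitals mark the letters TGTTTTG, the reverse complement of CAAAACA, the core of an insulin response element.
Irs1, chr1:82291440-82291689: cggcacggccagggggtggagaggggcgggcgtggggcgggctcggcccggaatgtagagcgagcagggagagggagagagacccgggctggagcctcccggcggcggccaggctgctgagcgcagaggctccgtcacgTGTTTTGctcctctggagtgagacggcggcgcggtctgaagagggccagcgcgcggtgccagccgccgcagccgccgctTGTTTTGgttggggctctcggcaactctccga
Irs2, chr8:11008930-11009179: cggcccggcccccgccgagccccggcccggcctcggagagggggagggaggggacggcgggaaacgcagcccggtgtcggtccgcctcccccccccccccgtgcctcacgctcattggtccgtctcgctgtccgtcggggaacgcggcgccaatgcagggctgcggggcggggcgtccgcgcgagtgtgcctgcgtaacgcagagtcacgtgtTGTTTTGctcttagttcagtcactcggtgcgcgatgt
Pik3r1, chr13:101768218-101768467: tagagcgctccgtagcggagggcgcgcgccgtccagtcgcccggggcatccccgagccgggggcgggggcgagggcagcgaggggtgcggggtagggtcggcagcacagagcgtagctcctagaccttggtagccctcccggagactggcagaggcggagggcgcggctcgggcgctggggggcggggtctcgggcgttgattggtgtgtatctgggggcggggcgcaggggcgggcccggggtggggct
In all, 4 motifs were searched on both strands of each 300-base window. CAAAACA lay at 2 places in the Irs1 window, at -111 and -32 from the start site, and at 1 place in the Irs2 window, at -37, and in no window of the other members. It was held by 6.28% of all 32851 promoter windows. A STAT motif, TTCNNNGAA, lay in the first Akt2 window at -160 and in the Socs3 window at -154, and was held by 8.3% of all windows. The forkhead motif GTAAACA (3.65% of all windows) and the cAMP response motif TGACGTCA (1.79%) were in none of the 12 member windows. These matches describe the letters only, and no binding was measured.

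Recovered reads on listed genes ran from 15992525 to 43841120 per library, and the least covered value of a member was 209 reads for Socs3 in 1 mouse. The median over 42 mice ran from 610 reads for Irs2 to 4750 for Insr. Cmklr1 had 40.8 to 114 normalized counts in WT lean and 9.72 to 22.6 in KO lean livers, with all 7 KO lean mice below the lowest WT lean mouse. All 7 KO obese mice also lay below the lowest WT obese mouse. Normalized counts are recovered reads over a library size factor that was set within 1 table of 14 libraries, so groups are compared within a table.

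On a scale that allows genes to be compared, reads per kilobase of exon after scaling for library size (RPKM), Insr was the highest member with a median of 15.1 over 42 mice. Socs3 (11.6), Akt2 (11.2), Pik3r1 (10.9) and Foxo1 (9.92) followed, and Grb14 (4.22), Irs1 (4.14), Foxo3 (3.98) and Irs2 (3.49) were lowest. The order differed between groups. By group median Socs3 was above Insr in WT lean (20.7 against 17.1 RPKM), KO lean (13.9 against 12.6 RPKM) and KO obese livers (18.6 against 15.8 RPKM). Akt2 (13.6 RPKM) was also above Insr in KO lean, and Pik3r1 (16.7 RPKM) in KO obese livers. Irs2 (7.89 RPKM) was above Irs1, Grb14 and Foxo3 in WT lean. The spread between mice differed between genes. Grb14 ran from 3.10 to 6.53 RPKM over all mice and Akt2 from 8.11 to 17.1, whereas Irs2 ran from 1.70 to 32.3 and Socs3 from 3.70 to 61.5.

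**Figure D1:**
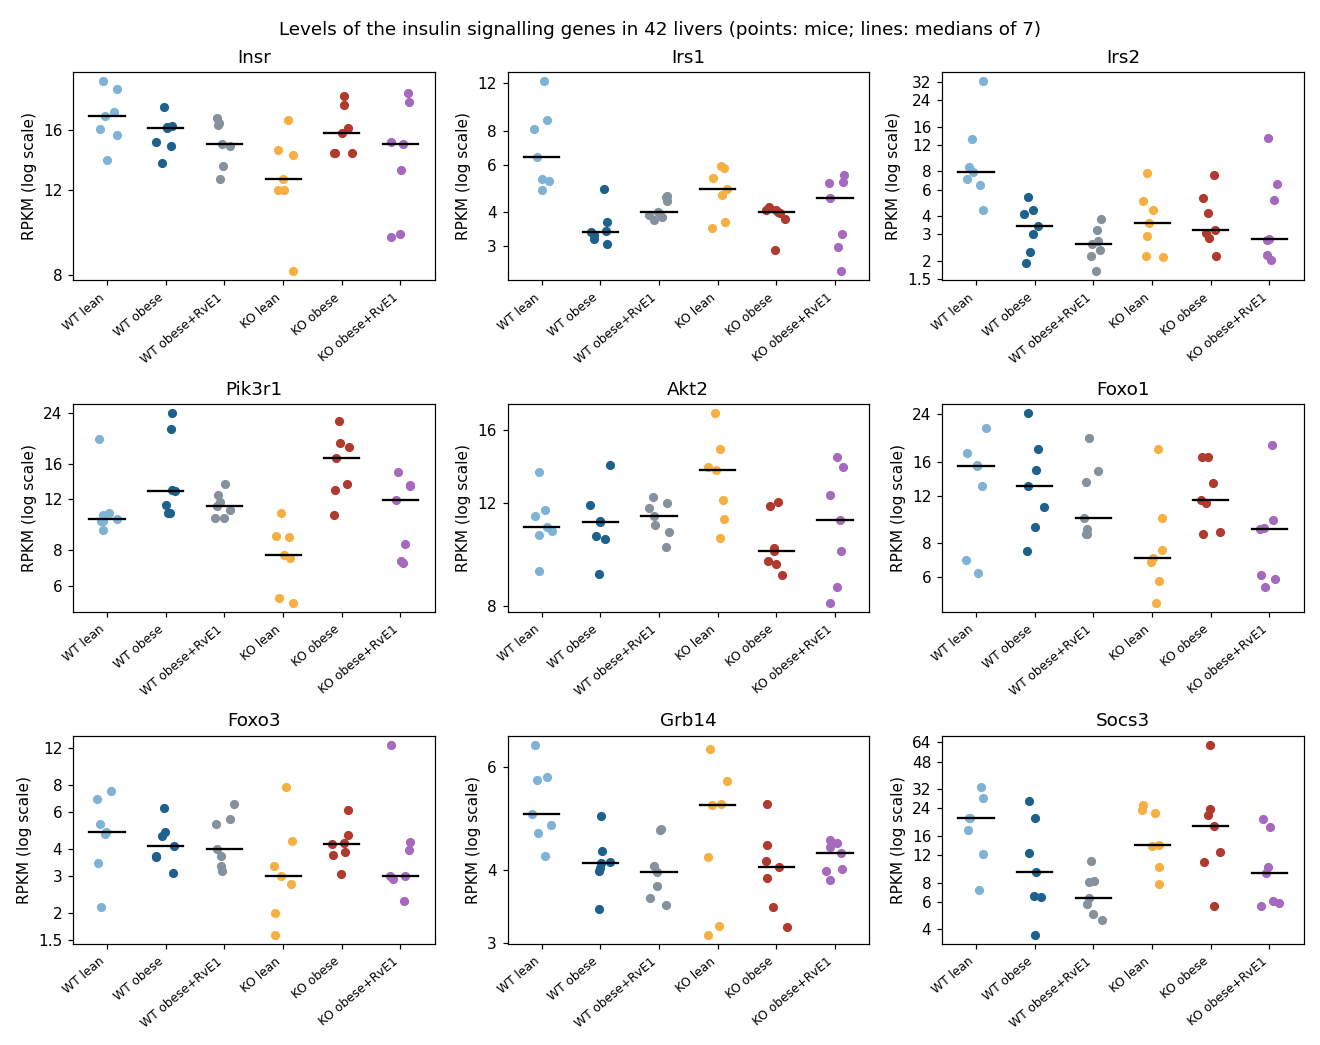
RPKM of the 9 genes (log axis) in each of 42 livers by group, with 1 point per mouse and a line at the median of 7 mice. Irs1 and Irs2 sit highest in WT lean livers, with group medians of 6.39 and 7.89 RPKM, and Pik3r1 highest in KO obese livers, at 16.7 RPKM.

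Ordered by group mean, 6 of the 9 genes had no pair of neighbouring groups whose means were further apart than 1 SD. Irs1 stood at 7.25 ± 2.63 RPKM (SD, n = 7) in WT lean, and the next group, KO lean, was lower by 2.42 RPKM against a pooled SD of 1.98. Below it the means of the other 4 groups lay between 3.56 and 4.16 RPKM, with no 2 neighbours in the order further apart than 1 SD. Pik3r1 was lowest in KO lean, at 7.77 ± 1.99 RPKM (SD, n = 7), 3.17 RPKM below its neighbour KO obese+RvE1. Akt2 was highest in KO lean, at 13.3 ± 2.26 RPKM (SD, n = 7), 2.00 RPKM above WT obese+RvE1. Irs2 was highest in WT lean at 11.4 ± 9.59 RPKM (SD, n = 7), but its distance of 6.43 RPKM to the next group was within the pooled SD of 7.37. Fewer cells of a type and less RNA per cell cannot be told apart in these whole-liver libraries.

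The first comparison asked what the high-fat diet did in WT livers. Both docking protein genes fell: Irs1 to 0.510 times its lean level and Irs2 to 0.358 times. The receptor, Akt2 and both FOXO genes were at 0.913 to 1.03 times the lean level and did not pass the test. Called means an adjusted p under 0.1 by limma on log2(normalized count + 1), over all genes with a mean count of at least 5. On this rule 2 of 9 members were called, both lower, against 6.27% of 14012 genes called in either direction and 2.61% called lower.

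Irs1 lies on chromosome 1 (GRCm38, 82233101 to 82291416, minus strand). It ran from 967 to 2428 normalized counts in WT lean mice (median 1274) and from 620 to 972 in WT obese mice (median 670). In all, 6 of 7 obese mice lay below the lowest lean mouse, and the ranges met only through the highest obese mouse. The difference was -0.97 on the log2 scale (SE 0.18, adjusted p 0.00717).

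Irs2, on chromosome 8 (10984681 to 11008458, minus strand), is the docking protein whose liver transcript is known to rise in fasting and fall after insulin. It ran from 609 to 4454 counts in WT lean (median 1098) and from 262 to 745 in WT obese (median 466). Again 6 of 7 obese mice were below every lean mouse, and 1 lean mouse stood far above the others. The difference was -1.48 on the log2 scale (SE 0.35, adjusted p 0.0279). Both genes were called in each of the 24 alternative fits, including every fit that left out 1 mouse, with log2 fold changes of -1.06 to -0.83 for Irs1 and -1.71 to -1.18 for Irs2.

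Grb14, an adaptor that blocks the receptor kinase (chromosome 2, 64912476 to 65024987), had 663 to 1019 counts in WT lean (median 789) and 534 to 783 in WT obese (median 637). Of the 7 obese mice, 5 were below the lowest lean mouse, yet the difference missed the threshold narrowly (log2 fold change -0.34, SE 0.11, adjusted p 0.103). It was called in 6 of 24 alternatives, among them edgeR and DESeq2. Socs3, the suppressor of cytokine and insulin receptor signals (chromosome 11, 117966079 to 117970047), had a log2 fold change of -0.85 with an SE of 0.41 and was not called (adjusted p 0.281). Its counts spread widely in both groups, from 449 to 2094 in lean and from 233 to 1702 in obese mice. Pik3r1 was 1.26 times the lean level with an adjusted p of 0.407.

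Of 74 other insulin pathway genes, 70 were tested in WT livers, and 2 were called higher and 1 lower, 4.29% in all against 6.27% of all genes. Pik3cb, a catalytic subunit of the kinase, was higher (log2 fold change 0.37, adjusted p 0.0808), as was Tbc1d4, an AKT substrate in glucose transporter traffic (0.47, adjusted p 0.0718). Socs2, a suppressor of growth hormone signals, was lower (-1.67, adjusted p 0.024). Among 13 tested genes regulated by FOXO1 or insulin, Srebf1, a regulator of lipogenesis, was higher (0.96, adjusted p 0.0628). Igfbp1 and Pdk4, both known to be raised by FOXO1, were lower, at -1.47 (adjusted p 0.0997) and -2.10 (adjusted p 0.087) on the log2 scale.

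Single genes of other lists were called in the same libraries, against 6.27% of all genes. Immediate early genes summed to 12019 to 36951 normalized counts in WT lean and 5523 to 21409 in WT obese mice, with Atf3 and Btg2 called lower among 9 tested. Clock genes had 4 of 11 tested called, with Per3 and Tef higher and Clock and Npas2 lower. Of 2 adipocyte markers tested, Cfd was called higher, and of 7 acute phase genes Saa3 was called higher and Crp lower. The part of these in the fall of Irs1 and Irs2 was not tested.

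In KO livers the same diet comparison called Pik3r1, Akt2 and Foxo1. Pik3r1 rose to 2.09 times, Akt2 fell to 0.777 times its lean level, and Foxo1 rose to 1.54 times. In all 3 of 9 members were called, 2 higher and 1 lower. The background here was high, with 24.1% of 14213 genes called, 12% higher and 12.1% lower, and 3 of 9 members is 33.3%, a share not far from that of all genes.

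Pik3r1 encodes p85α and its shorter forms, the regulatory subunits that hold and stabilize the catalytic subunit (chromosome 13, 101680563 to 101768217). It ran from 1314 to 2735 normalized counts in KO lean (median 1908) and from 2618 to 5704 in KO obese mice (median 4288). Of the obese mice, 6 of 7 were above the highest lean mouse, and the ranges overlapped through 1 obese mouse. The difference was 1.07 on the log2 scale (SE 0.19, adjusted p 0.00420), and it was called in all 24 alternatives at values of 0.86 to 1.21.

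Akt2 (chromosome 7, 27591552 to 27640826) had 1857 to 3039 counts in KO lean (median 2428) and 1616 to 2182 in KO obese mice (median 1731). Of the obese mice, 5 of 7 were below the lowest lean mouse, a difference of -0.36 on the log2 scale (SE 0.12, adjusted p 0.0484). The call was lost with equal read totals, with the mouse identifier number as a random block, and without replicate 7 of the KO obese group. Foxo1 (chromosome 3, 52268336 to 52353221) had 1041 to 3883 counts in KO lean and 1857 to 3679 in KO obese mice, so the ranges overlapped widely. Its difference of 0.62 on the log2 scale (SE 0.25, adjusted p 0.0937) was called in 10 of 24 alternatives only.

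Neither docking protein gene was called by limma in KO livers, though Irs1 was called in 5 of 24 alternatives, among them DESeq2, library quality weights and the length and GC correction. Irs1 had medians of 1117 in lean and 925 in obese mice, a difference of -0.30 on the log2 scale (SE 0.13, adjusted p 0.122). Irs2 had medians of 563 and 506 and a log2 fold change of 0.04, with a 95% interval of -0.60 to 0.68. Insr reached 0.33 (adjusted p 0.115), and Foxo3, Grb14 and Socs3 had adjusted p-values of 0.302 to 0.807. With the mouse identifier number as a random block only Pik3r1 was called, and with library quality weights 7 of 9 members were. Over all 14213 genes the block called 500 higher and 557 lower and the weights 2852 and 2885. The main fit called 1704 and 1718.

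Among the 70 other pathway genes tested, 12 were called higher and 3 lower, 21.4% against 24.1% of all genes. Ide, the insulin-degrading enzyme (0.67, adjusted p 0.0305), and Enpp1, an inhibitor of the receptor (0.40, adjusted p 0.0429), rose. Pik3cb (0.52, adjusted p 0.0135), the docking protein gene Frs2 (0.42, adjusted p 0.0661) and Rictor, the defining subunit of mTORC2 (0.52, adjusted p 0.0617), rose as well. Below AKT, Gsk3b, the glycogen synthase kinase that AKT holds inactive (0.73, adjusted p 0.0344), Foxk1 (0.50, adjusted p 0.0709) and Tbc1d4 (0.47, adjusted p 0.0847) were higher. Among the inhibitors, the kinase genes Ikbkb (0.43, adjusted p 0.00645) and Prkce (0.30, adjusted p 0.0653) and the phosphatase gene Ptpn2 (0.38, adjusted p 0.0714) were higher. Dok1, a docking protein abundant in blood cells, fell (-0.86, adjusted p 0.00766), as did Trib3, an AKT inhibitor (-1.26, adjusted p 0.0801), and Grb7 (-0.39, adjusted p 0.0328). Of the 13 tested genes regulated by FOXO1 or insulin, 0 were called by limma.

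**Figure D2:**
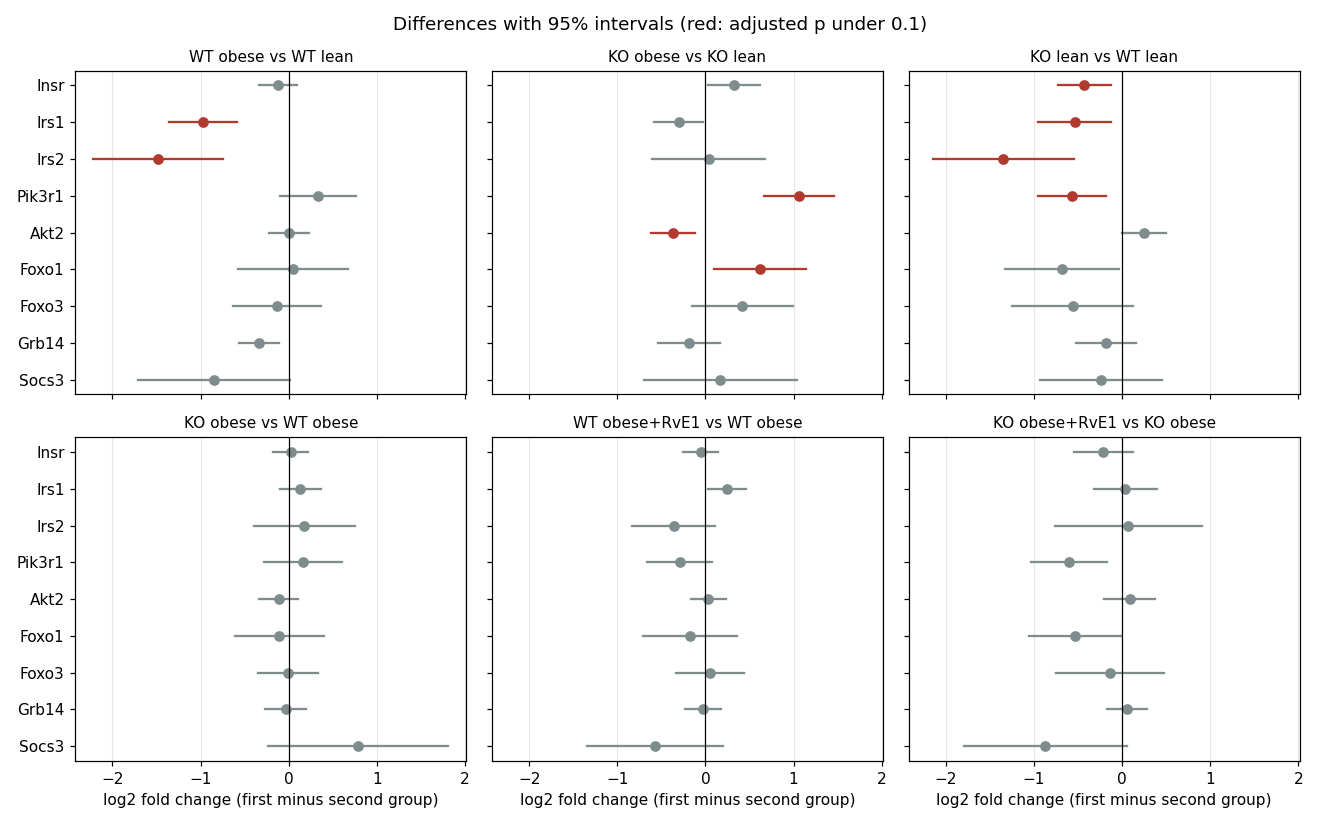
Log2 fold change of each of the 9 genes with its 95% interval in 6 comparisons, first group minus second, with 7 mice in each group. Red marks genes with an adjusted p under 0.1: Irs1 and Irs2 in WT obese vs WT lean, 3 genes in KO obese vs KO lean and 4 in KO lean vs WT lean.

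The diet effects of the 2 genotypes were compared directly as an interaction, KO diet effect minus WT diet effect. No member was called, against 0.00718% of 13924 genes, although 5 of 9 members had an unadjusted p under 0.05, against 18.3% of all genes. Irs2 had the largest difference, 1.52 (95% interval 0.51 to 2.53, adjusted p 0.141), and Irs1 differed by 0.67 (0.19 to 1.14, adjusted p 0.149). Pik3r1 differed by 0.73 (adjusted p 0.183), Insr by 0.45 (adjusted p 0.171) and Akt2 by -0.36 (adjusted p 0.214). DESeq2 called Irs1 and Irs2, among 385 genes higher and 541 lower in all, edgeR called 0 members, and library quality weights gave 4, among 1284 genes higher and 1279 lower. The differing lists of called members in WT and KO livers are therefore not shown to differ between genotypes by the main test.

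The third comparison asked how KO and WT livers differed on the lean diet. In KO lean livers 4 members were lower: Insr at 0.742 times the WT level, Irs1 at 0.688, Irs2 at 0.393 and Pik3r1 at 0.675. All were called lower, against 8.3% of 13031 genes called lower and 16.3% called either way. The list's median log2 fold change was -0.54, while that of all genes was about 0. The median was also below 0 for the 70 other insulin pathway genes tested (-0.18). It was -0.40 for the 13 tested genes regulated by FOXO1 or insulin.

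Irs2 had 302 to 1135 normalized counts in KO lean (median 511) and 633 to 4633 in WT lean mice (median 1148), with 5 of 7 KO mice below every WT mouse. The difference was -1.35 on the log2 scale (SE 0.38, adjusted p 0.0482). Pik3r1 had 1192 to 2492 counts in KO lean (median 1733) and 2154 to 4479 in WT lean (median 2331). Of the KO mice, 6 of 7 were below the lowest WT mouse, a difference of -0.57 on the log2 scale (SE 0.18, adjusted p 0.0682).

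Insr (chromosome 8, 3122061 to 3279617) had 2537 to 5298 counts in KO lean (median 3905) and 4324 to 6381 in WT lean (median 5308), with 4 of 7 KO mice below every WT mouse. The difference was -0.43 on the log2 scale (SE 0.14, adjusted p 0.0701). Irs1 had medians of 1014 in KO and 1321 in WT lean mice, and 3 KO mice were below the lowest WT mouse (log2 fold change -0.54, SE 0.20, adjusted p 0.0911). Foxo1 had a log2 fold change of -0.68 (adjusted p 0.164), Foxo3 -0.56 (0.279), and Akt2 0.25 (0.193), and none of these was called.

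The calls of Insr, Irs1, Irs2 and Pik3r1 held in 15, 11, 21 and 17 of 24 alternatives. With the mouse identifier number as a random block 0 members were called (2 genes were higher and 1 lower among all tested). The fits without KO lean replicate 4 or 6 also called 0 members. Over all 13031 genes, 470 were called higher and 411 lower without replicate 4, and 334 and 268 without replicate 6. The main fit called 1042 and 1081. Correction for gene length and GC content left Irs2 only (adjusted p 0.0569), with the log2 fold change of Insr moving from -0.43 to -0.16. Over all 13031 genes that correction called 835 higher and 832 lower. The 7 KO lean mice serve both here and as the reference of the KO diet comparison. The 7 WT lean mice are the reference both here and in the WT diet comparison. Opposite directions across these comparisons are therefore not separate evidence. Nor are like directions, such as the lower Irs1 and Irs2 in both WT obese and KO lean livers.

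Among the 70 other pathway genes tested, 13 were lower in KO lean livers and 1 higher, 20% against 16.3% of all genes. The AKT arm gave Rictor (-0.55, adjusted p 0.0433), Trib1 (-0.76, adjusted p 0.0598) and Mapkap1, another mTORC2 subunit (-0.31, adjusted p 0.0673). Below AKT, Tsc2 (-0.42, adjusted p 0.069), Prkci (-0.27, adjusted p 0.0701) and Gsk3b (-0.61, adjusted p 0.0806) were lower. The inhibitors Ikbkb (-0.33, adjusted p 0.0574), Ptpn2 (-0.38, adjusted p 0.0609) and Ptprf (-0.49, adjusted p 0.0766) were lower too. Ceacam1, which promotes insulin clearance, was lower (-0.49, adjusted p 0.0832), as was Frs2 (-0.46, adjusted p 0.0541), and Dok1 was higher (0.73, adjusted p 0.0435). Of the genes regulated by FOXO1 or insulin, Fasn (-1.25, adjusted p 0.0357), Sesn3 (-0.63, adjusted p 0.0357) and Mttp (-0.40, adjusted p 0.0747) were lower. Immediate early genes summed to 12489 to 38428 normalized counts in WT lean and 2995 to 23529 in KO lean mice, with Nr4a1 and Atf3 called lower among 9 tested, and their part was not tested.

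**Figure D3:**
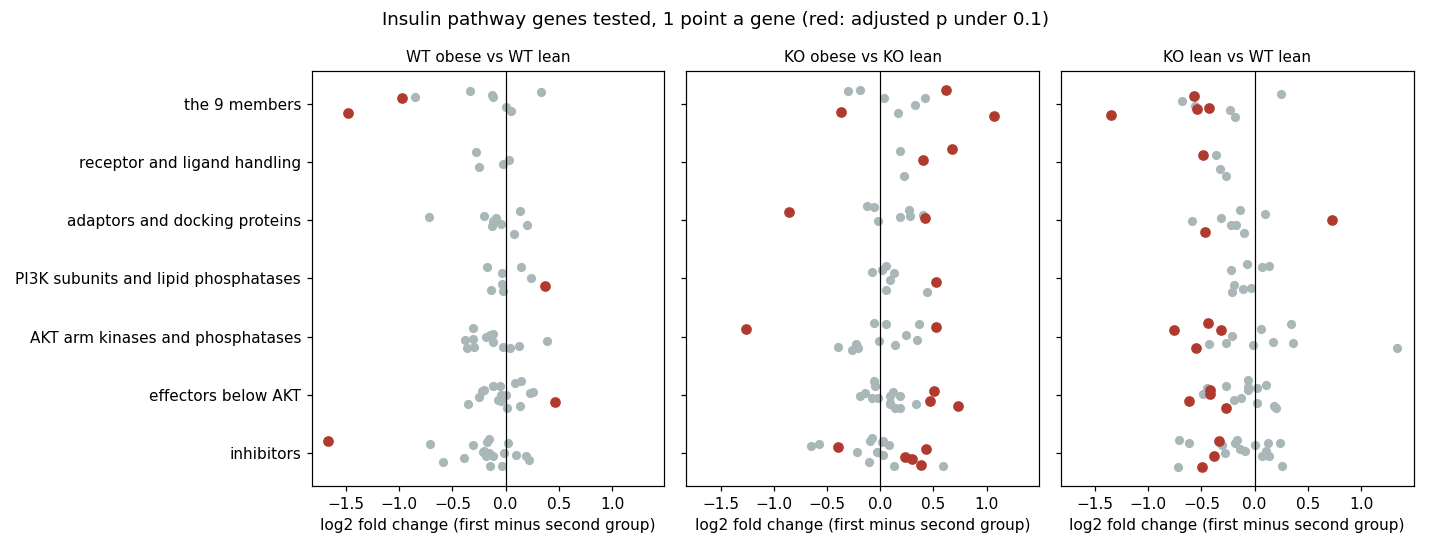
Log2 fold change of the 9 members and of 70 other insulin pathway genes in 6 role groups, 1 point per gene, in 3 comparisons of 7 against 7 mice. Red marks an adjusted p under 0.1: 3 of the 70 in WT obese vs WT lean, 15 in KO obese vs KO lean and 14 in KO lean vs WT lean.

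Kupffer cell markers and some myeloid markers moved with the KO lean group. Of all genes, 16.3% were called in KO lean vs WT lean and 24.1% in KO obese vs KO lean. Clec4f, Vsig4, Timd4 and Cd5l, all 4 Kupffer cell markers tested, were called higher in KO lean than in WT lean and lower in KO obese than in KO lean. Their sum ran from 2299 to 5450 normalized counts in WT lean and from 5275 to 12797 in KO lean mice, and from 3397 to 4599 in KO obese against 5790 to 14113 in KO lean mice in the other table. Adgre1, another marker of the list, was not listed in the tables. Of 5 myeloid markers, Lyz2 and Csf1r were called in the same directions. In KO obese against KO lean livers 2 of 5 sinusoidal endothelial, 1 of 5 stellate and 2 of 3 lymphocyte markers were called lower. In the same comparison 4 of 7 acute phase genes were called higher, against 12.1% of all genes lower and 12% higher. In KO lean against WT lean livers 1 of 5 stellate and 1 of 4 cholangiocyte markers were also called lower, against 8.3% of all genes. There 1 of 2 lymphocyte markers and 1 of 7 acute phase genes were called higher. All 6 hepatocyte markers were tested and 0 were called by limma in any of the 3 comparisons, and the pancreatic acinar markers Cpa1, Pnlip, Ctrb1 and Amy2a5 were not listed. The part of these cell markers in the member differences was not tested.

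Between KO obese and WT obese livers 0 members were called by limma, and 0 had an unadjusted p under 0.05, while 0.0141% of 14162 genes were called. The 95% intervals were narrow for Insr (-0.18 to 0.22), Irs1 (-0.10 to 0.36) and Akt2 (-0.33 to 0.11), and wide for Socs3, which had medians of 650 in WT and 1297 in KO obese mice (-0.23 to 1.81). edgeR and DESeq2 also called 0 members.

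RvE1 was compared with vehicle in obese mice of each genotype. In WT obese livers 0 of 13085 genes were called (0%) and 0 members, with 795 genes and 1 member at an unadjusted p under 0.05. That member was Irs1, with 882 to 1079 normalized counts after RvE1 (median 942) and 727 to 1141 after vehicle (median 785). Its log2 fold change was 0.24 (SE 0.10, 95% interval 0.03 to 0.46, adjusted p 0.785), and the treated range lay inside the vehicle range.

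In KO obese livers 0 of 14207 genes were called (0%), with 1179 genes and 2 members at an unadjusted p under 0.05. Pik3r1 had 1811 to 3827 counts after RvE1 (median 3008) and 2668 to 5755 after vehicle (median 4305), with 3 of 7 treated mice below every vehicle mouse. Its log2 fold change was -0.60 (95% interval -1.04 to -0.17, adjusted p 0.557). Foxo1 had -0.53 (95% interval -1.05 to -0.01, adjusted p 0.592). Socs3 had -0.87 in KO and -0.57 in WT obese mice, with 95% intervals of -1.80 to 0.06 and -1.34 to 0.20. The interaction of RvE1 and genotype called 0 members and 0 of 13059 genes (0%), with 311 genes and 0 members at an unadjusted p under 0.05. edgeR and DESeq2 called 0 members in all 3 of these tests, while DESeq2 called 6 genes higher and 19 lower in WT and 5 higher and 12 lower in KO livers.

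Within groups some members rose and fell together from mouse to mouse. Correlations of the 36 pairs were taken over 42 mice on log2(RPM + 1), with the mean of each group removed. Of these, 6 pairs passed an adjusted p of 0.1 in a two-sided permutation test with 100000 shuffles within groups, 5 positive and 1 negative. Foxo1 and Foxo3 were closest, with Pearson's r 0.85 and Spearman's rho 0.84 (permutation p 1e-05 for both, the smallest the shuffles can give, and adjusted p 0.00036), and r was positive in all 6 groups. Without the 2 mice farthest from the median of Foxo1, r was 0.80.

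Pik3r1 went with Foxo1 (r 0.59, rho 0.55, permutation adjusted p 0.0023 and 0.0052), with Insr (r 0.55, rho 0.57, 0.0072 and 0.0052) and with Irs2 (r 0.56, rho 0.45, 0.0072 and 0.063). It also went with Foxo3 (r 0.46, rho 0.38, permutation adjusted p 0.024 and 0.1). Insr and Akt2 ran opposite to each other (r -0.61, rho -0.46, permutation adjusted p 0.0078 and 0.063). The raw permutation p-values of r were 0.00013, 0.00066, 0.0008, 0.004 and 0.0011 in that order. Of these 5 pairs, only Pik3r1 with Irs2 had a positive r in all 6 groups. Pik3r1 had a positive r in 5 groups with Foxo1 (lowest -0.09) and with Insr (lowest -0.68), and in 4 with Foxo3 (lowest -0.27). Insr and Akt2 had a positive r in 1 group (0.11). Leaving out the 2 farthest mice gave r of 0.54, 0.46, 0.43, 0.47 and -0.50 for the 5 pairs. These shuffles take the mice of a group as exchangeable, whereas mice also share identifier numbers (18 combinations of group and number, 3 of them with 1 mouse). With the mean of each combination removed and shuffles within it, a choice made after seeing the data, r was 0.63 for Foxo1 and Foxo3 (permutation adjusted p 0.098), 0.61 for Pik3r1 and Foxo1 (0.044), 0.70 for Insr and Pik3r1 (0.028) and -0.73 for Insr and Akt2 (0.028). Pik3r1 no longer passed with Irs2 (r 0.31, permutation adjusted p 0.41) or Foxo3 (r 0.39, 0.13). Irs1 and Irs2 had r 0.13 (rho 0.06, permutation adjusted p 0.66 and 0.85).

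**Figure D4:**
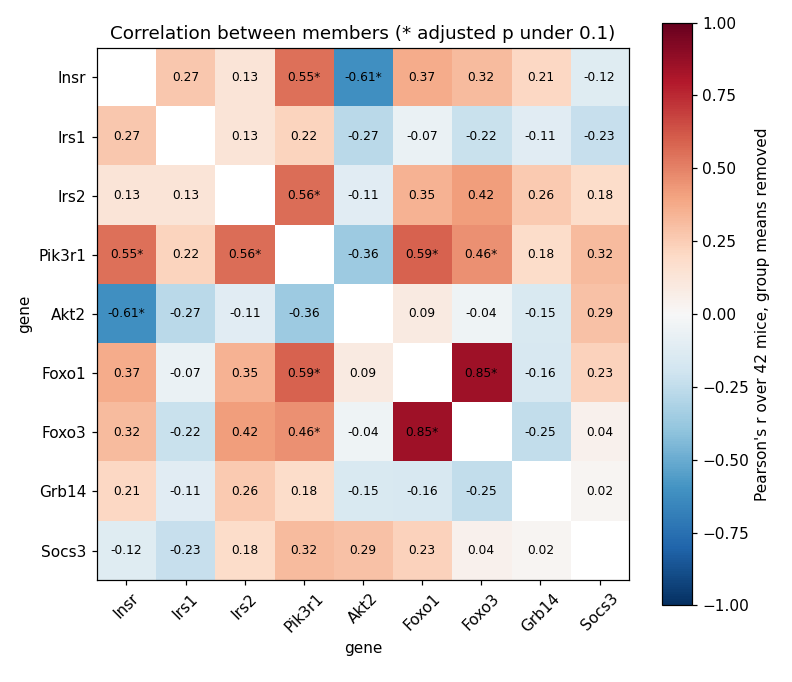
Pearson's r for the 36 pairs of genes over 42 mice after the mean of each group was removed, on a colour scale from -1 to 1. A star marks the 6 pairs with a permutation adjusted p under 0.1, from 0.85 for Foxo1 and Foxo3 to -0.61 for Insr and Akt2.

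The genes most like each member over the same 42 mice were listed among 10700 others, as a description with no test. Irs2 was most like Sik1 (r 0.84), Atf3 (0.76) and Slc25a25 (0.73). Foxo1 was most like Hspa2 (0.94), Ankrd33b (0.90) and Lpin1 (0.90), and Foxo3 was most like Foxo1 (0.85). Insr was most like Hnrnpul2 (0.92), Akt2 most like Rdh7 (0.92), Pik3r1 most like Elmsan1 (0.80) and Grb14 most like Hnrnpd (0.78). Socs3 was most like Sema6b (0.74) and Irs1, with the weakest partner, most like Ndrg3 (0.64). All of these points share library depth and composition.

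In all, 3 members overlap another gene in their exons on the other strand: Irs1 with Gm9747, Irs2 with 9530052E02Rik and Foxo1 with Gm20402. How the counting treated strand was not stated, so reads of such pairs could not be told apart.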

How the data were processed

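Whole-liver RNA was made into TruSeq stranded libraries and sequenced as read pairs. Per the labels and methods, the authors aligned reads to mm10 with Bowtie2, counted pairs per gene with featureCounts (both ends mapped) and ran DESeq2 on the 14 libraries of each comparison. Tool versions, gene annotation and strand handling: not given in the sources used here. The deposited signal values are reads divided by a size factor, and 100% of 1268806 values were whole reads within 0.1, so reads were recovered. The deposited tables also hold the authors' fold changes and p-values, which were not used.

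Tests used limma (3.58.1, eBayes with trend, two-sided, in R 4.3.3) on log2(normalized count + 1), with Benjamini-Hochberg adjustment over all genes with a mean of at least 5. Called means an adjusted p under 0.1. RPKM used TMM over 42 libraries and GENCODE M21 exon lengths on GRCm38, the same build as mm10. Alternatives were pseudocounts of 0.5 and 4, no filter, TMM, equal read totals, quality weights, a random block for the number in the mouse identifier, a length and GC correction (loess span 0.3), an adjusted p under 0.05, a fold change above 1.5, edgeR (4.0.16), DESeq2 (1.42.0) and leaving out each mouse, and, for pairs of genes and added after seeing the data, means and shuffles within group and identifier number. Replicate numbers follow the order of deposit and pair nothing. All 9 members were named in all comparisons. Of the other pathway lists, up to 3 called genes in each direction with the smallest adjusted p were named, and up to 3 most alike genes per member. Members and lists were chosen with earlier results of these data known. Fits were also run on simulated counts, drawn independently for each library with no correlation by identifier number and no trend with length or GC. Such counts cannot test the calls that changed under those alternatives. Each 95% interval is for an estimated log2 fold change, or its difference between genotypes, from the limma standard error. It takes the mice of a fit as independent and does not give the range of single mice.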

Additional observations from a re-analysis of the deposited data

Results flagged for a closer look

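In all, 9 values stood apart from the other 6 mice of their group among 54 groups of 7 mice and 1 gene. For independent and normally distributed values about 2.7 would be flagged. RPKM was not log-transformed here and the same mice recur across genes, so 2.7 is not a measure of chance for these data. In WT lean, replicate 1 had the highest Irs2, 32.3 RPKM against 13.3 in the next mouse, and the highest Pik3r1, 19.6 RPKM against 10.7. In KO obese+RvE1, replicate 6 had the highest Irs2 (13.4 RPKM), Foxo1 (18.4 RPKM) and Foxo3 (12.4 RPKM). In KO obese, replicate 4 had the lowest Irs1 (2.92 RPKM) and the highest Socs3 (61.5 RPKM). Foxo1 in KO lean replicate 5 was 17.8 RPKM against a group median of 7.06, and Irs1 in WT obese replicate 2 was 4.88 RPKM against 3.38.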

How the results depend on the processing

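Irs1 and Irs2 in WT obese vs WT lean and Pik3r1 in KO obese vs KO lean passed in every alternative. The number of members called in WT obese vs WT lean stayed at 2 to 3. In KO obese vs KO lean it was 3, but 7 with library quality weights and 1 with the random block for identifier number. It was 2 with edgeR, with an adjusted p under 0.05 or with a fold change above 1.5. When 1 mouse was left out it was 1 to 5 (5 without KO lean replicate 5, 1 without KO obese replicate 7). Over all 14213 genes, those left-out fits called 2241 higher and 2263 lower, and 1076 and 1146, against 1704 and 1718 in the main fit. In KO lean vs WT lean the number of members called was 4, but 0 with the random block. It was 1 with the length and GC correction, with an adjusted p under 0.05 or with a fold change above 1.5. It was 5 with equal read totals and 6 with quality weights, and 0 to 6 when 1 mouse was left out. Over all genes the length and GC correction called 835 higher and 832 lower. The count of members was 0 without KO lean replicate 4 or 6 and 1 without WT lean replicate 2 or 5 or KO lean replicate 2. It was 2 without replicate 7 of either group and 6 without KO lean replicate 5. Over all 13031 genes, 470 were called higher and 411 lower without KO lean replicate 4, and 334 and 268 without replicate 6. These were 354 and 266 without WT lean replicate 2, 331 and 241 without replicate 5, and 518 and 479 without KO lean replicate 2. Without KO lean replicate 5 they were 1701 and 1839, against 1042 and 1081 in the main fit. For the interaction of diet and genotype the number of members called was 0, but 4 with quality weights and 2 with DESeq2. When 1 mouse was left out it was 0 to 4 (2 without WT obese replicate 1, 4 without KO lean replicate 5). Over all 13924 genes, 497 were called higher and 466 lower without WT obese replicate 1. Without KO lean replicate 5 they were 928 and 920, against 0 and 1 in the main fit. The other 4 tests called 0 members in every alternative. With equal read totals 12 of 36 pairs passed against 6, and Akt2 and Foxo1 turned from r 0.09 to -0.41. Within group and identifier number, a choice made after seeing the data, 10 pairs passed, and Foxo1 and Grb14 turned from r -0.16 to 0.50. The cause of these changes was not tested. Equal read totals moved the median of all genes by 0.14 in KO obese vs KO lean, where 2555 genes were higher and 628 lower against 1704 and 1718, and by -0.12 in KO lean vs WT lean, where 392 were higher and 1753 lower against 1042 and 1081. Over all genes the random block called 162 higher and 117 lower in WT obese vs WT lean (512 and 366 without it), 500 and 557 in KO obese vs KO lean, 2 and 1 in KO lean vs WT lean and 0 and 0 in KO obese vs WT obese (1 and 1). Quality weights called 882 and 723, 2852 and 2885, and 2067 and 2230 in the first 3 of these, equal read totals 349 and 161 in the first and 1 and 0 in the last, and DESeq2 757 and 610 in the first. For the interaction of diet and genotype limma called 0 and 1, DESeq2 385 and 541 and quality weights 1284 and 1279. No paired analysis was made, because replicate numbers follow the order of deposit. Identifier numbers each lay within a single group, apart from a number shared by KO obese and KO obese+RvE1 mice. They left no pairs to match in the other comparisons.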
